A study of Homo sapiens with 16 samples.

Results

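Salt-inducible kinases (SIKs), the cAMP-hydrolysing phosphodiesterases of the PDE4 family and the transcription factor CREM were followed in human neuroblastoma cells of the line SK-N-BE(2) that carried different forms of HIF-2α. The genes were taken by name: SIK1, the identifier ENSG00000275993 (a near-identical copy of SIK1), SIK2, SIK3, PDE4A, PDE4B, PDE4C, PDE4D and CREM. These 9 names matched 10 of the 63187 rows of the deposited gene table, because PDE4C has 2 rows, and 9 of the 10 rows were among the 19530 that passed the low-count filter. The members were selected on measured values of these libraries, namely the differences of ENSG00000275993 and SIK1 between NCTAD and WT and that of PDE4C between cIDR and FL. Those contrasts are given as a description, and where a count of calls includes one, nothing is read from it.

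Gene expression was measured by poly(A)-selected RNA-seq in 16 libraries, 4 in each of 4 groups. WT is the group labelled as wild-type SK-N-BE(2) cells, and FL is cells transfected with full-length HIF-2α, the oxygen-regulated transcription factor encoded by EPAS1. NCTAD and cIDR are cells transfected with the forms that the study's design calls ΔN-CTAD and Δc-IDR, taken here as HIF-2α lacking the region named; the sample labels drop the Δ. All groups are of 1 cell line, grown at 21% oxygen with 10% serum, and every library also carries a batch number, 1 to 4, with 1 library of each group per batch. The labels used here do not give the vector, the promoter that drives the constructs, the time after transfection or an empty-vector control, so an effect of transfection and an effect of HIF-2α cannot be told apart against WT.

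cAMP is made by adenylate cyclases and broken down by phosphodiesterases, of which the PDE4 enzymes act on cAMP alone. It activates protein kinase A (PKA), which phosphorylates CREB, and CREB with its CRTC coactivators drives genes that carry the cAMP response element. SIKs, kinases that LKB1 activates and PKA inhibits, phosphorylate CRTCs and class IIa histone deacetylases and so hold them in the cytoplasm. SIK1 is itself a classical cAMP-induced gene, and CREM gives rise to repressors of the same element from an internal promoter. In cells of the sympathetic lineage, from which neuroblastoma arises, cAMP drives differentiation and catecholamine synthesis.

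SIK1 and ENSG00000275993 were read mainly as a pair because their sequences barely differ. GENCODE 29 on GRCh38 places SIK1 on chromosome 21 from 43414483 to 43427189 (minus strand) and ENSG00000275993, which it names SIK1B, on the same chromosome from 6111134 to 6123739 (plus strand). Their coding sequences, each 2349 bases long, are identical at 2347 positions and differ by the substitutions C1844T and C1848T, with the base of SIK1 first and positions counted from the first base of the start codon. Coding bases 1824 to 1868, shown because they hold both differences (in capitals), read as follows.
SIK1: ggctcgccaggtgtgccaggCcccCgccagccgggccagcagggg
ENSG00000275993: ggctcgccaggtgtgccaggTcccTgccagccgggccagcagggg
Over 1 whole transcript of each gene, of 4805 and 4705 bases, 97.8% of the alignment was identical. The rest was 100 gap bases and 7 mismatches. The estimated counts showed the same closeness. The SIK1 row was not whole (off by more than 0.002) in any of the 16 libraries, while the sum of the pair was whole within 0.002 in all 16, so the estimation divided shared fragments between the rows. ENSG00000275993 received 84.0% to 92.7% of the pair's counts, with a median of 88.7%, and the ranges of the 4 groups overlapped. That division is uncertain, and the sum is the safer quantity.

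Promoter sequence was examined because cAMP acts through short elements near the start sites of these genes. RefSeq promoter windows on GRCh38.p14 matched 8 of the names, all but ENSG00000275993, and gave 33 windows, each taken as the 250 bases before a start site. The full element TGACGTCA stood in 1 member window, at CREM, and in 1.65% of all 35116 windows. Its core TGACG, which the full element contains, stood in 8 of the 33 member windows and in 21.2% of all windows, and ACGTG, the core bound by HIF proteins, in 8 of 33 and in 18.5% of all. GCGTG, a variant of that core, stood in 17 of 33 and in 32.2% of all. Both strands were searched, and a match describes the letters only. The windows shown are those of the members the results turn on, SIK1 standing for the pair: chr21:43427190-43427381 for SIK1 and chr19:18224494-18224743 for one of the PDE4C start sites (both minus strand), and chr10:35195841-35195870 at an internal start of CREM (plus strand). The SIK1 window is cut to its first 192 bases, where annotated transcript sequence begins, which leaves out a GCGTG, and the CREM window to the 30 bases around its element. The PDE4C window was chosen for its matches, and the other 3 PDE4C windows hold neither TGACG nor ACGTG. Capitals mark TGACG in SIK1, TGACG and ACGTG in PDE4C, either of them on either strand, and TGACGTCA in CREM.
SIK1: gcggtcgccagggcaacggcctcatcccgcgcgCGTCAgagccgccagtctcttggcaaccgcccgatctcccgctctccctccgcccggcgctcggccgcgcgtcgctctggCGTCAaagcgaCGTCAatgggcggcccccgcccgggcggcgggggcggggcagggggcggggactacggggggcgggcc
PDE4C: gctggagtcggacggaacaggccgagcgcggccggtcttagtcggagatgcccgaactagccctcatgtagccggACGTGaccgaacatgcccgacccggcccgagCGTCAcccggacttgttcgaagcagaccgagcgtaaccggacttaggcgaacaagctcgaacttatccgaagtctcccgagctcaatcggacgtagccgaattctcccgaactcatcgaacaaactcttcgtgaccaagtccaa
CREM: gagctgcacatTGACGTCAgctccgagtca

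Library totals ranged from 38.6 to 56.1 M estimated counts (M, mega), and mitochondrial genes took 6.20% to 10.3% of them in 15 libraries and 2.55% in FL of batch 4. EPAS1 stood at 13.0 to 28.1 CPM (counts per 1 M counts, on TMM-scaled library sizes) in WT. In batches 1 to 4 it was 1691, 2001, 3580 and 3164 CPM in FL, 2203, 1320, 4228 and 3655 CPM in NCTAD and 4078, 2189, 5852 and 5816 CPM in cIDR, which was highest in each batch. The 9 sympathetic neuroblastoma markers summed to 4433 to 5766 CPM, leukocyte markers to at most 0.615 CPM and epithelial markers to at most 3.37 CPM. The 3 endothelial markers, PECAM1 and CDH5 under 1 CPM among them, summed to 0.125 to 1.15 CPM in WT and 0.430 to 2.15 CPM in transfected libraries. VWF, one of them, rose in cIDR against WT with the batch in the model (log2 change 1.65 ± 0.34 (SE), edgeR adjusted p 0.0439), and the part of such cells in the results below was not tested. Batch 2 stood apart: its 4 libraries detected 27130 to 27319 genes, the other 12 detected 24649 to 26385. Summed oxygen-response markers were 688 to 1174 CPM in batch 2 and 202 to 407 CPM elsewhere, and summed fibroblast markers, of which COL1A2 stayed under 1 CPM, were 69.1 to 72.0 and 26.3 to 34.8 CPM. Epithelial sums (2.13 to 3.37 and 0.769 to 1.72 CPM) and endothelial sums (1.15 to 2.15 and 0.125 to 0.892 CPM) separated batch 2 in the same direction. Each group has 1 library in that batch, so results below are given within batches too. The labels do not say whether libraries came from separate cultures, so p-values measure the spread between these libraries.

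The summed SIK1 pair was higher with every form of HIF-2α than in WT, in every batch. Its level was 14.6, 15.5, 14.3 and 16.2 CPM in the WT libraries of batches 1 to 4. In FL it was 18.0, 26.7, 22.4 and 19.8 CPM. NCTAD libraries held 25.5, 28.2, 27.2 and 25.0 CPM, and cIDR libraries 22.0, 27.8, 23.5 and 23.6 CPM. In CPM no transfected library reached down into the WT range, and the libraries of the 3 forms overlapped each other. By CPM the order from low to high was WT, FL, cIDR, NCTAD in all 4 batches. By TPM (length-scaled, explained below) it was not, as batch 2 held 8.38 in cIDR and 8.58 in FL. FL of batch 1 (4.81 TPM) also lay within the WT range (4.47 to 5.30 TPM). The copy alone had cIDR above NCTAD in batch 2 (25.4 and 23.7 CPM). Among the tested genes 1 (0.00512%) had the CPM order of the pair in all 4 batches, MYO3B. It was named after its values were seen and lay at or below 1.25 CPM. The pair was not a row of that count. The order has WT lowest and NCTAD highest, the contrast that chose the copy, so nothing is read from its rarity.

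Over WT the pair in FL stood 0.51 ± 0.25 higher on the log2 CPM scale (mean ± SD of 4 within-batch differences), the NCTAD libraries 0.80 ± 0.13 and the cIDR libraries 0.67 ± 0.13 higher. As ratios within batches these were 1.22 to 1.73 in FL, 1.55 to 1.90 in NCTAD and 1.46 to 1.79 in cIDR. Of the tested genes 5.33%, 8.85% and 10.5% were higher in 4 of 4 batches in FL, NCTAD and cIDR, and 0.456%, 0.876% and 0.876% were higher with no overlap of the libraries. The NCTAD contrast chose the gene and is read no further. The comparisons with WT share the WT libraries, so the other contrasts are not independent of it.

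Calls over all genes were rare, at 0.0102% of tested genes in each of FL and cIDR against WT without the batch in the model. edgeR then did not call the pair in cIDR (log2 fold change 0.68 ± 0.11 (SE), adjusted p 0.113) or in FL (0.52 ± 0.11, adjusted p 0.750). With the batch as a block the pair rose in cIDR (0.67 ± 0.08, edgeR adjusted p 0.000644) and in FL (0.51 ± 0.08, adjusted p 0.0151), where 0.486% and 0.102% of tested genes were called. The cIDR call held when any of the 16 libraries was left out of the blocked fit (largest edgeR adjusted p 0.00932). The FL call was lost without WT replicate 2, WT replicate 3, FL replicate 2 or FL replicate 3 (edgeR adjusted p 0.0803 to 0.179). It was also lost when any 1 batch was left out of the blocked fit (edgeR adjusted p 0.0774 to 0.523).

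Read alone, ENSG00000275993 followed the pair. It stood at 12.3, 13.2, 13.2 and 14.98 CPM in WT, 16.6, 22.6, 19.7 and 17.5 in FL, 23.6, 23.7, 24.1 and 22.3 in NCTAD and 19.8, 25.4, 20.6 and 20.9 in cIDR. In CPM WT overlapped no other group. The row was the single member called without the block, in NCTAD against WT, where 5 of 19530 genes (0.0256%) were called. This is the contrast that chose it, so nothing is read from that count. In cIDR its log2 fold change was 0.69 ± 0.11 (edgeR adjusted p 0.0536 without the block, 0.000908 with it). In FL it was 0.51 ± 0.11 (edgeR adjusted p 0.709 without the block, 0.0328 with it), and 12 of the 16 blocked fits that left out a library did not call it.

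The SIK1 row alone gave no such picture. It held 46.7 to 223 estimated counts per library, 1.13 to 4.50 CPM. WT libraries were at 2.25, 2.25, 1.13 and 1.19 CPM and NCTAD libraries at 1.88, 4.50, 3.11 and 2.69 CPM, so that in batch 1 WT was higher and in the other batches lower. Its log2 differences from WT were 0.58 ± 0.86 in FL, 0.83 ± 0.74 in NCTAD and 0.61 ± 0.69 in cIDR (SD of 4 batches), each higher in 3 of 4 batches. No fit called it, and its NCTAD contrast, one of those the members were selected on, is read no further.

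Between the HIF-2α forms the pair kept 1 order of CPM in the 4 batches, with no call. The copy was chosen on a contrast of NCTAD with WT, so nothing is read from the batch counts that involve NCTAD. NCTAD exceeded FL by 0.30 ± 0.18 (within-batch mean ± SD) in 4 of 4 batches, with 6.02% of tested genes higher in 4 of 4. cIDR exceeded FL by 0.17 ± 0.12, also in 4 of 4 batches by CPM (4.87% of tested genes). By TPM batch 2 went the other way, with 8.38 in cIDR and 8.58 in FL. cIDR was below NCTAD in 4 of 4 batches, by −0.13 ± 0.10 (6.03% of tested genes lower in 4 of 4). None of these was called by edgeR, with adjusted p of 1 without the block and 0.996, 1 and 1 with it.

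SIK2, which acts on CRTC coactivators, and SIK3, the most abundant SIK by length-scaled level, did not separate the groups. SIK2 ranged over 28.5 to 47.6 CPM in WT, 30.0 to 51.4 in FL, 32.5 to 48.0 in NCTAD and 28.7 to 44.8 in cIDR. SIK3 ranged over 41.3 to 55.0, 40.8 to 57.5, 40.7 to 56.8 and 41.0 to 54.4 CPM in the same order. All 4 groups overlapped for each gene. Within batches SIK2 differed from WT by −0.02 ± 0.25, 0.14 ± 0.17 and 0.0015 ± 0.11 on the log2 scale in FL, NCTAD and cIDR. SIK3 differed by −0.02 ± 0.19, 0.03 ± 0.04 and 0.0028 ± 0.04. SIK2 was lower in cIDR than in NCTAD in 4 of 4 batches (−0.14 ± 0.14), as were 6.03% of tested genes, without a call.

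**Figure D1:**
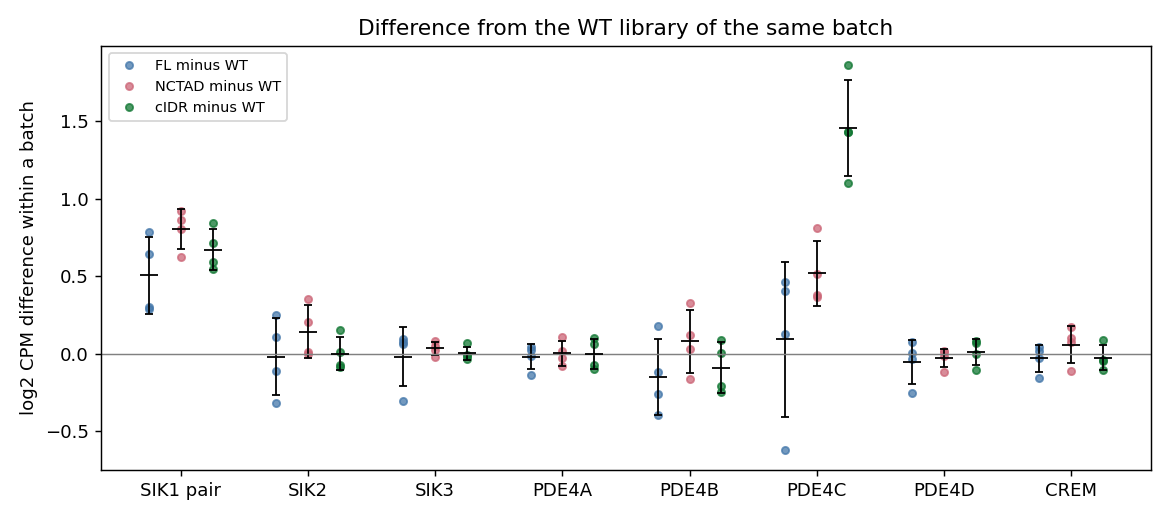
Log2 CPM of each transfected library minus the WT library of its batch (y axis) for the SIK1 pair and 7 further genes (x axis). Coloured points are the 4 batches, and black marks with bars are the mean ± SD. The 12 points of the SIK1 pair lie at or above 0.29 and the 4 cIDR points of PDE4C above 1, and SIK2, SIK3, PDE4A, PDE4B, PDE4D and CREM have points on both sides of 0.

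PDE4C, which encodes one of the cAMP-specific PDE4 isoenzymes on chromosome 19 (18208652 to 18248200, minus strand), was highest in cIDR in every batch. WT libraries held 2.19, 16.4, 2.22 and 2.26 CPM in batches 1 to 4, and cIDR libraries 8.07, 35.3, 6.06 and 6.16 CPM. FL libraries held 3.03, 21.8, 2.43 and 1.45 CPM, and NCTAD libraries 2.83, 21.4, 3.93 and 3.25 CPM. Batch 2 was far above the other batches in every group, so the groups overlap when batches are pooled. Within each batch the cIDR library stood above the other 3. EPAS1 was also highest in cIDR in each batch, so the form and the EPAS1 level cannot be told apart here. Of the tested genes 109 (0.558%) had cIDR highest in 4 of 4 batches, PDE4C among them, which was chosen on a cIDR contrast.

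**Figure D2:**
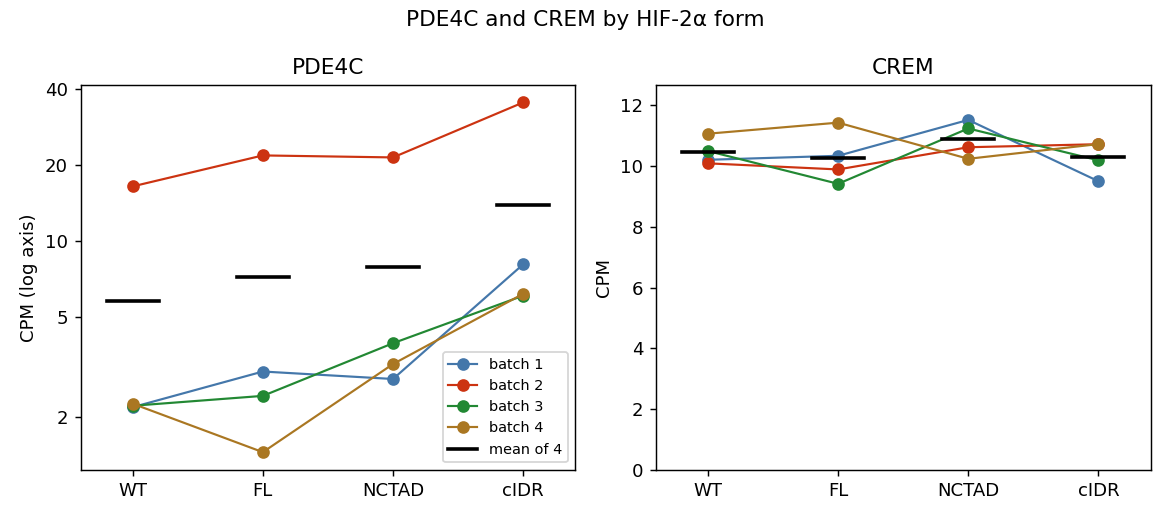
CPM of PDE4C (left, log axis) and CREM (right, axis from 0) in the 4 groups, with 1 line per batch and a black bar at the mean of 4 libraries. Batch 2 of PDE4C runs from 16.4 to 35.3 CPM, above every other library, and the last point of each PDE4C line, cIDR, is its highest, whereas the CREM lines stay between 9.42 and 11.5 CPM.

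PDE4C in cIDR was 3.68, 2.15, 2.73 and 2.73 times the WT library of batches 1 to 4, a log2 difference of 1.46 ± 0.31 (SD, n = 4). Without the block edgeR gave 1.26 ± 0.98 (adjusted p 1), and with it PDE4C rose by 1.46 ± 0.19 (adjusted p 0.00106), where 95 of 19530 genes (0.486%) were called. All 16 blocked fits that left out a library kept the call (largest edgeR adjusted p 0.0132), as did all 4 that left out a batch (largest 0.0317). Without the block and without batch 2 the change was 1.59 ± 0.24 (edgeR adjusted p 0.0142). This contrast shares the cIDR libraries with the contrast of cIDR and FL that chose the gene.

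Against the other forms, cIDR was 2.66, 1.62, 2.49 and 4.24 times FL in batches 1 to 4, a log2 difference of 1.36 ± 0.56, given as a description beside the 0.0307% of tested genes that the blocked fit called there. It was 2.85, 1.65, 1.54 and 1.90 times NCTAD, a log2 difference of 0.94 ± 0.39 in 4 of 4 batches (4.36% of tested genes), and edgeR did not call it (adjusted p 1 without the block, 0.441 with it). By CPM NCTAD exceeded WT in 4 of 4 batches by 0.52 ± 0.21 (8.85% of tested genes), without a call (edgeR adjusted p 1 without the block, 0.607 with it). By TPM batch 1 went the other way, with 1.29 in NCTAD and 1.81 in WT. FL differed from WT by 0.09 ± 0.50, higher in 3 batches and lower in batch 4. That batch 4 FL library is the one with the low mitochondrial share. Without it the blocked change in FL against WT was 0.34 ± 0.16 (SE, edgeR adjusted p 0.541) in place of 0.16 ± 0.19 (adjusted p 0.928), and the cIDR to FL ratios left were 1.62 to 2.66. The part of that low share in these values was not tested.

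The second PDE4C row, ENSG00000285188, is a longer gene of GENCODE 29 that overlaps PDE4C on the same strand (18207961 to 18255419). It had 0 counts in 14 libraries, which allows up to 0.0528 to 0.0812 CPM per library (3 counts, counting error only), and 20.9 and 41.1 counts in FL and NCTAD of batch 4. Added to PDE4C, those libraries held 94.0 and 192 counts. The batch 4 ratio of cIDR to FL was then 3.29 in place of 4.24, and that of cIDR to NCTAD 1.49. With the rows summed the blocked log2 fold change in cIDR against WT was 1.45 ± 0.17 (edgeR adjusted p 0.000847).

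PDE4D, the PDE4 gene with the highest length-scaled level, PDE4A and PDE4B did not separate the groups. PDE4D ranged over 94.5 to 127 CPM in WT, 83.0 to 127 in FL, 91.4 to 126 in NCTAD and 87.9 to 134 in cIDR. PDE4A ranged over 22.4 to 31.4, 23.1 to 31.1, 22.0 to 29.7 and 23.6 to 29.9 CPM, and PDE4B over 9.42 to 16.5, 8.42 to 15.2, 10.0 to 18.0 and 9.44 to 14.3 CPM, in the same order. Within batches the mean differences from WT lay between −0.15 (PDE4B in FL, SD 0.25) and 0.08 (PDE4B in NCTAD, SD 0.20). PDE4B was higher in NCTAD than in FL in 4 of 4 batches (0.23 ± 0.15), as were 6.02% of tested genes.

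CREM, whose internal promoter carries the full cAMP element printed above, did not separate the groups. It stood at 10.2, 10.1, 10.5 and 11.1 CPM in WT, 10.3, 9.89, 9.42 and 11.4 in FL, 11.5, 10.6, 11.2 and 10.2 in NCTAD and 9.50, 10.7, 10.2 and 10.7 in cIDR. Its differences from WT were −0.03 ± 0.09, 0.06 ± 0.12 and −0.03 ± 0.08 on the log2 scale in FL, NCTAD and cIDR. Gene-level counts do not separate the transcripts of its internal promoter from the rest.

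Over the 6 genes SIK2, SIK3, PDE4A, PDE4B, PDE4D and CREM and the 6 comparisons, edgeR called 0 of 36 contrasts without the block and 0 with it. Unadjusted edgeR p-values under 0.05 numbered 0 and 1 of 36. Over all 19530 genes 119 to 277 per comparison had such a p without the block. The fitted log2 changes lay between −0.18 and 0.23 without the block and between −0.17 and 0.22 with it, with SE up to 0.23 and 0.10. No alternative fit called any of the 6 (smallest adjusted p 0.529 over edgeR, DESeq2 and limma). A p above the threshold does not show that levels were equal.

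The members were ordered by TPM (transcripts per 1 M transcripts), which scales by length and allows genes to be compared. Medians over the 16 libraries were 24.3 TPM for PDE4D, 15.5 for CREM, 13.5 for SIK3, 7.74 for PDE4A, 6.74 for the SIK1 pair, 5.21 for SIK2, 3.76 for PDE4B and 1.80 for PDE4C. PDE4D ranged over 13.5 to 35.8 TPM and CREM over 11.98 to 18.7, and SIK3 over 10.9 to 15.8, so these neighbours overlapped. The SIK1 pair (4.47 to 9.09 TPM), SIK2 (3.91 to 7.68) and PDE4A (6.77 to 9.69) also overlapped. PDE4C spanned the widest range as a ratio of highest to lowest, 0.904 to 19.6 TPM, and in batch 2 stood above PDE4B in each group.

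**Figure D3:**
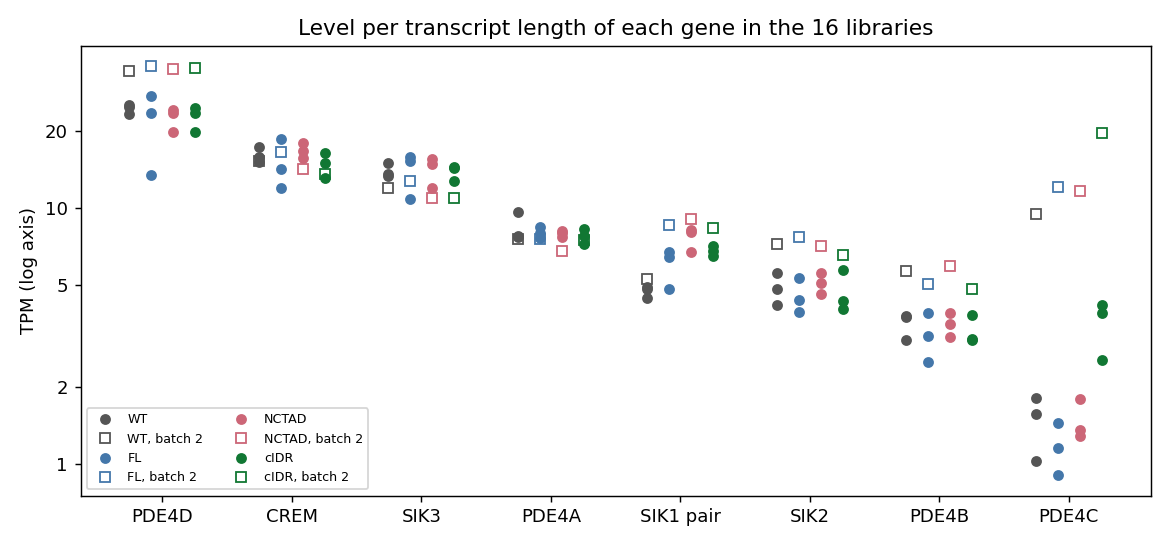
TPM (log axis) of 8 genes in the 16 libraries, ordered by median. Colours are groups, and open squares are the batch 2 libraries. PDE4C lies between 0.904 and 4.17 TPM outside batch 2 and reaches 19.6 TPM within it.

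Batch 2 was set against the mean of batches 1, 3 and 4 of the same group, as a description over 1 batch and with no test. PDE4C was 2.80 ± 0.37 higher on the log2 scale (mean ± SD of 4 groups), 5.22 to 9.45 times the other batches. Of the tested genes 7.12% exceeded the others by more than 1 on this scale, and 0.328% by at least as much as PDE4C. PDE4B (0.63 ± 0.10), SIK2 (0.51 ± 0.15) and PDE4D (0.43 ± 0.05) were also highest in batch 2 in all 4 groups, as were 19.1% of tested genes. SIK3 (−0.32 ± 0.09) was lowest in batch 2 in 3 of 4 groups and PDE4A (−0.23 ± 0.08) in 2 of 4, while 18% of tested genes were lowest there in all 4. CREM (−0.03 ± 0.07) and the SIK1 pair (0.21 ± 0.17) moved least, and the WT libraries of the pair by 0.04.

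**Figure D4:**
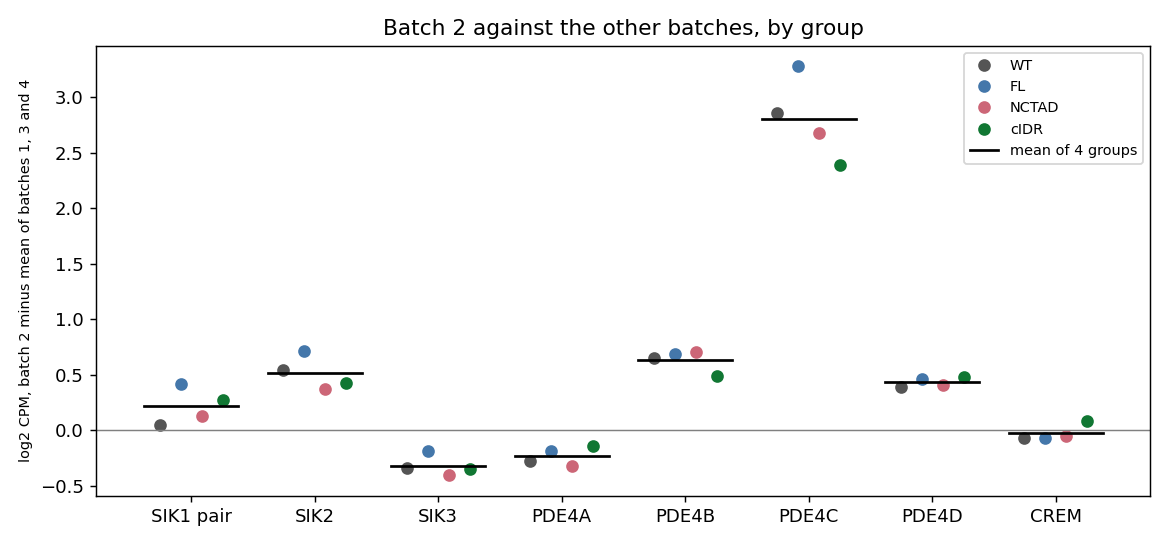
Log2 CPM of the batch 2 library minus the mean of batches 1, 3 and 4 of the same group (y axis) for 8 genes, with 1 point per group and a bar at the mean of 4 groups. PDE4C sits between 2.39 and 3.28, PDE4B, SIK2 and PDE4D lie above 0 in each group, and SIK3 and PDE4A lie below 0 in each.

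All 8 oxygen-response markers were highest in batch 2 in all 4 groups too, WT included, by 0.76 to 3.23 on the log2 scale. CA9, one of the 8, stayed under 1 CPM in every library. The differences were 3.23 for NDRG1, 1.49 for VEGFA, the vascular growth factor, and 0.81 for ADM, which encodes the peptide adrenomedullin. With the block edgeR called 0 of these 8 higher in FL, 4 in NCTAD and 5 in cIDR against WT, where 0.102%, 0.456% and 0.486% of tested genes were called, and 0 of 8 in each without it. In cIDR VEGFA rose by 0.89 ± 0.11, NDRG1 by 2.49 ± 0.34 and ADM by 1.47 ± 0.22 (blocked edgeR adjusted p 0.00106, 0.00184 and 0.00417). The oxygen percentage in the labels is 21 in every library. EPAS1 in the transfected libraries was 1320 to 2189 CPM in batch 2 and 1691 to 5852 CPM elsewhere. The part of oxygen response, of EPAS1 level or of culture in the PDE4C and SIK1 pair differences was not tested.

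The genes around these regulators were read as 6 lists of 91 genes, 78 of which were tested. edgeR without the block called 0 of 78 in each comparison. Against WT, 1 of the 78 in FL, 2 in NCTAD and 1 in cIDR had an edgeR p below 0.05 before adjustment. The same held for 222, 277 and 268 of all 19530 genes. With the block 5, 11 and 6 of the 78 had such a p. edgeR then called 0, 3 and 1 of 78 (0, 3.85% and 1.28%), beside 20, 89 and 95 of 19530 genes (0.102%, 0.456% and 0.486%). Between the forms it called 0 of 78. The median blocked log2 changes of the 78 against WT were −0.0070, 0.014 and 0.0082, and those of all tested genes 0.011, 0.016 and 0.0079.

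Among 18 tested CREB target genes, CRH, the corticotropin-releasing hormone gene, stood out. It was 38.4, 73.9, 33.2 and 27.6 CPM in WT, 55.1, 143, 45.2 and 50.5 in FL, 142, 176, 95.0 and 84.2 in NCTAD and 130, 135, 93.2 and 85.7 in cIDR. It was higher than WT in 4 of 4 batches with each form. With the block CRH rose by 1.57 ± 0.16 in NCTAD (edgeR adjusted p 0.000278) and 1.45 ± 0.16 in cIDR (0.000507), and its FL change was 0.72 ± 0.16 (0.162). VIP, a neuropeptide gene, was lower in NCTAD and cIDR in 4 of 4 batches, for which the share of all tested genes was not counted. With the block VIP fell by 0.31 on the log2 scale in NCTAD (SE 0.06, edgeR adjusted p 0.0342). In cIDR its change was −0.25 ± 0.06 (edgeR adjusted p 0.129). NR4A1, an immediate early receptor gene, changed by 0.21 ± 0.07 in NCTAD (edgeR adjusted p 0.487 with the block).

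Of the 10 tested genes of cAMP synthesis, GNAS, which encodes the stimulatory G protein subunit, stood at 1700 ± 169 CPM in WT libraries and at 2084 ± 314 CPM in those of NCTAD (mean ± SD, 4 each). With the block it rose by 0.29 ± 0.06 in NCTAD (edgeR adjusted p 0.0359) and changed by 0.19 ± 0.06 in cIDR (0.319). No gene was called among 10 other cAMP phosphodiesterases, 13 genes of PKA and its partners, 11 CREB factors and SIK substrates and 16 kinases of the LKB1 and AMPK group, in any comparison by either fit. The smallest blocked adjusted p there was that of CAB39L, an LKB1 scaffold gene, in NCTAD against WT (−0.27 ± 0.08, edgeR adjusted p 0.275). HDAC7, a SIK substrate, changed by 0.12 ± 0.06 and PRKACA, the PKA catalytic subunit gene, by 0.11 ± 0.05 in NCTAD against WT.

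Likeness of pattern was read as Pearson's r of log2 CPM over the 16 libraries, which share 4 batches and 4 groups, against 12366 genes with a symbol and a mean log2 CPM of at least 1. After each batch mean was subtracted, the genes most like the SIK1 pair were SOX7 (r = 0.938), ZNF395 (0.933), RGS4 (0.931), TMEM62 (0.931) and BHLHE40 (0.929). Those most like PDE4C were CASKIN1 (0.916), PFKP (0.910), CSH2 (0.906, one of a family of near-identical genes), AK4 (0.905) and PPFIA4 (0.903). With batch means kept, PFKP (0.980), PPFIA4 (0.976), SLC25A42 (0.969), SLC2A3 (0.966) and AK4 (0.966) headed the PDE4C list. For CREM the highest was ZDHHC13 (0.699), with batch means kept.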

How the data were processed

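Estimated counts per gene and TPM values for the 16 libraries were deposited by the authors as 2 merged tables; the table names and the submitters' processing notes name Salmon, and the notes also name fastp, STAR, featureCounts and GRCh38, with versions and annotation release not given in the sources used here. The column names write BE2c for the cells, which the labels call SK-N-BE(2), NTAD for NCTAD, wild type for FL and control for WT; groups follow the sample labels, which tie each column to its sample. Estimated counts were rounded, filtered with filterByExpr and tested in edgeR 4.0.16 by quasi-likelihood (R 4.3.3, TMM, group as the only term, 16 libraries); p-values were adjusted by Benjamini-Hochberg and called under 0.05. Biological variation (coefficient, over genes) came to 0.245, or 0.108 with the batch as a block. SE is the absolute log2 change over the square root of F. A prior count of 2 went into log2 CPM. The pair was summed after rounding and took the place of its rows.

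The labels give each replicate number as a batch. Deviations of log2 CPM from group means correlated with a mean r of 0.308 (0.0674 to 0.712) between libraries of a batch. Between batches the mean r was −0.0945, which centring on group means pulls below 0, so it is not read as a contrast. Blocked values stand beside results whose call they change.

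Members and lists were chosen with earlier results of these data known. Genes named are the members, EPAS1, up to 3 genes per list with the smallest blocked adjusted p, and the 5 genes most alike in pattern; MYO3B and the cell-type markers at low level were named outside that rule. Alternatives were other size factors, DESeq2 1.42.0, other filters, limma 3.58.1 on log2(TPM + 1) and log2(TPM + 0.1), the 8 libraries compared, and libraries or batches left out; summing the PDE4C rows was added after seeing the data. On simulated counts for NCTAD against WT (200 of 19208 genes changed), edgeR recovered 58.6% of 2-fold and 86.0% of 4-fold changes. Figures were drawn with matplotlib 3.10.9.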

Additional observations from a re-analysis of the deposited data

Results flagged for a closer look

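In groups of 4 libraries, a library was picked out where its gap to the nearest other took more of the group's range than the 95% critical value of Dixon's ratio allows. Of 40 groups examined (10 readings in 4 groups), 5 had such a library, each in batch 2; chance gives about 1 in 20. For PDE4C the batch 2 libraries of WT, FL, NCTAD and cIDR held 16.4, 21.8, 21.4 and 35.3 CPM, where the nearest other libraries held 2.26, 3.03, 3.93 and 8.07 CPM. PDE4D was at 127 CPM in WT of batch 2, next to 99.0 CPM.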

How the results depend on the processing

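Members called without the block numbered 0 in FL, 1 in NCTAD and 0 in cIDR against WT, and 0 in the comparisons between forms, beside 2, 5, 2 and 0 of 19530 genes. The replicate block gave 1 in FL, 1 in NCTAD and 2 in cIDR against WT, 1 in cIDR against FL and 0 in the other two comparisons, beside 20, 89, 95 and 6 genes, and changed no other call. These were ENSG00000275993 in the first 3 and PDE4C in cIDR against WT and FL. The calls in NCTAD against WT and in cIDR against FL fall on the contrasts that chose these members, and nothing is read from them or from their loss or gain. DESeq2 called 1 member in FL and 1 in cIDR against WT, beside 11 and 8 of 19459 genes, and gave no adjusted p for PDE4C. limma on log2(TPM + 1) and log2(TPM + 0.1) called 0 members in NCTAD against WT (1 and 2 of all genes), as did edgeR without batch 1, 3 or 4 (1, 3 and 1 of all genes). Without batch 2 edgeR called 2 in cIDR against WT, beside 33 of 19102 genes. Batches left out with the block gave 0 in FL against WT (5 to 16 of all genes), 2 in cIDR against WT (36 to 49) and 0 or 1 in cIDR against FL (0 to 10). With single libraries left out, with or without the block, the counts ranged from 0 to 1 in FL and NCTAD, 0 to 2 in cIDR against WT and 0 to 1 in cIDR against FL, beside 2 to 26, 2 to 124, 2 to 123 and 0 to 8 of all genes. PDE4C in FL against WT changed sign with log2(TPM + 1) (−0.056), log2(TPM + 0.1) (−0.14) and the block without batch 2 (−0.0071). With single libraries left out its log2 change ranged from −1.33 to 1.69 in FL, −0.79 to 1.82 in NCTAD and 0.22 to 2.65 in cIDR against WT, −1.10 to 1.77 for NCTAD and −0.085 to 2.60 for cIDR against FL, and −0.21 to 2.06 for cIDR against NCTAD; batch 2 libraries gave the ends, and with the block cIDR against WT stayed within 1.34 to 1.61. The cause of these changes was not tested.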

Other observations

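Of the 9 sympathetic neuroblastoma markers, edgeR with the batch as a block called 0 in FL, 2 in NCTAD and 2 in cIDR against WT, where 0.102%, 0.456% and 0.486% of tested genes were called, and the median log2 changes of the 9 were 0.034, 0.016 and 0.058. Both called genes, TH and DBH, which encode enzymes of catecholamine synthesis and served as markers of the cell line, were higher with each form than in WT in 4 of 4 batches. For DBH the WT libraries held 357 ± 93.4 CPM, those of FL 464 ± 159, those of NCTAD 543 ± 124 and those of cIDR 509 ± 133 (mean ± SD, 4 each). With the batch as a block its log2 change was 0.36 ± 0.07 in FL (edgeR adjusted p 0.0681), 0.61 ± 0.07 in NCTAD (0.000350) and 0.51 ± 0.07 in cIDR (0.00131). TH lay between 0.856 and 10.2 CPM, and with the block it changed by 0.83 ± 0.17 in FL (edgeR adjusted p 0.121), 1.27 ± 0.17 in NCTAD (0.00220) and 1.06 ± 0.17 in cIDR (0.00953). Neither was called without the block.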
